A study of Mus musculus with 6 samples.

Results

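Processed pseudogenes with counts in the mouse aorta were the 391 rows, of 55487 in the count table, that carried the biotype processed_pseudogene (342 rows) or transcribed_processed_pseudogene (49 rows) and were selected on a mean CPM of 1 or more, where CPM is a row's count divided by the library's total and multiplied by 1e+06, over the 6 libraries. The table held 10303 rows of these biotypes, of which 4057 had a count in some library. The 3 members just inside the limit had mean CPM of 1.0020, 1.0050 and 1.0111, and the 3 rows just outside it had 0.9908, 0.9940 and 0.9995. The members' differences between genotypes were not used to select them, but a mean over both groups can be reached through either. Of the members called changed below, Ndufs5-ps and Gm48583 had a CPM under 1 in every control. Gm6088 had a CPM under 1 in every iSM KO library. Each thus met the limit only through the group where it was higher, and Ndufs5-ps was singled out with its values already known.

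The libraries came from aortas of 3 control and 3 Prdm16 iSM KO male mice at baseline. Both groups carried the tamoxifen-inducible, Y-linked Myh11-CreERT2 transgene, which acts in smooth muscle cells, on a C57BL/6 background, and both received tamoxifen from 8 weeks of age. The iSM KO mice had exon 9 of Prdm16 flanked by loxP sites on both alleles and the controls had wild-type Prdm16, so the loxP allele and its loss came together. Aortas were taken after 2 weeks of washout and a further 60 days, with the adventitia removed.

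A processed pseudogene arises when the mRNA of a gene is copied back into DNA and inserted elsewhere in the genome, without introns and usually without the promoter of its parent. Genes with abundant short mRNAs, such as those of ribosomal proteins and of housekeeping enzymes, have left many such copies. A copy that lies in an intron is transcribed as part of its host gene's precursor, and a young copy differs so little from the parent mRNA that a short read can match both.

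Totals ranged from 24911584 to 40460411 counts per library. Prdm16, the targeted gene, had a normalized CPM (scaled by TMM factors) of 183, 223 and 178 in controls and of 93.6, 113 and 79.7 in iSM KO aortas, a log2 fold change of -1.03 (SE 0.14, edgeR FDR 0.00265). The 5 smooth muscle markers summed to 21383 to 26478 normalized CPM in controls and 22988 to 25399 in iSM KO, and none of them was called. The 4 adipocyte markers summed to 4.62 to 50 and 1.14 to 3.36, and the 3 of them tested were called lower, as was 1 of 2 brown adipocyte markers; their part in the results on pseudogenes was not tested. The other markers reached at most 846 in sum (endothelial) and 278 (fibroblast), and lymphocyte markers at most 0.494.

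The sequences of the members with an edgeR FDR under 0.05 are shown first, beside the coding sequence that each matches, because they show by how many bases each can be told from the coding gene. Ndufs5-ps is a copy of Ndufs5, which encodes an accessory subunit of mitochondrial complex I. It lies on the plus strand at chr16:42955631-42955949 (GRCm38, 319 bases), within an intron of Zbtb20 and on the strand of that gene. All 319 bases lay in the 321-base coding sequence of Ndufs5, from its start codon on, and 317 were identical. The first 300 bases of each are given from 5′ to 3′, with the differing bases in capitals.
Ndufs5-ps: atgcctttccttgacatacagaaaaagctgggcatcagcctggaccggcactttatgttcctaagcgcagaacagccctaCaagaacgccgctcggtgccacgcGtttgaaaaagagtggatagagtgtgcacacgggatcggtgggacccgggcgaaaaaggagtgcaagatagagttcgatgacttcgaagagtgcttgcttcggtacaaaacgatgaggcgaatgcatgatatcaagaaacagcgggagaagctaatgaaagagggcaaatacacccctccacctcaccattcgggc
Ndufs5: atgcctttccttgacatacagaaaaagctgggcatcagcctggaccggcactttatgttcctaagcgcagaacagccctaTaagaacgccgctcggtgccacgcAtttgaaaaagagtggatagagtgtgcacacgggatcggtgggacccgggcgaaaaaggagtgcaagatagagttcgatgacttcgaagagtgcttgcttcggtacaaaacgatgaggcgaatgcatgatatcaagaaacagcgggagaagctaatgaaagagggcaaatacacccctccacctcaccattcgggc
Counted from the first coding base of Ndufs5, the differences were T81C and A105G, with the base of Ndufs5 first. Both fell on position 3 of a codon and left the encoded amino acid as it was, and the copy kept the reading frame over 106 codons without a stop. Of the 220 windows of 100 bases in Ndufs5-ps, 52.3% occurred without a change in Ndufs5 and in no other gene.

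Gm6088, on the X chromosome, is most like Ago2, which encodes the Argonaute protein that cuts target RNAs in RNA interference. Over 2528 aligned bases it had 115 mismatches and 12 gaps, and 0.451% of its windows occurred in Ago2. The stretch of 120 gap-free coding bases with the most differences (11) is shown, which lies at chrX:140799248-140799367 on the plus strand.
Gm6088: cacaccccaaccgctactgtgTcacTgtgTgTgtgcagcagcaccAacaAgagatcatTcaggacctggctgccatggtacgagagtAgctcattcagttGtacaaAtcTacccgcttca
Ago2: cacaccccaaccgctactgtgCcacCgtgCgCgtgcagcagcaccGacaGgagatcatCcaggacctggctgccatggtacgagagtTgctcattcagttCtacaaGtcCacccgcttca
Rps27a-ps2 is a copy of Rps27a, whose product is ubiquitin fused to ribosomal protein S27a, and differed from it in 1 of 467 bases, A375G from the first coding base. A 120-base stretch around that position is shown, from chr9:83409974-83410093 on the plus strand.
Rps27a-ps2: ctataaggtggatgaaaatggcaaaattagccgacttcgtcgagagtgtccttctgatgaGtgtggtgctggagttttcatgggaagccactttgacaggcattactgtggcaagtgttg
Rps27a: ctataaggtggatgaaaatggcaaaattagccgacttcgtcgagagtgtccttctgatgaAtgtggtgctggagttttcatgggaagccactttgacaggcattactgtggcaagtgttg
For Gm12338 and Gm48583 the match was complete, so that no base told them from the coding gene. Gm12338 (192 bases) equals the whole coding sequence of Cox7c, a subunit of cytochrome c oxidase, and Gm48583 (220 bases) equals coding bases of Rbm3, a cold-inducible RNA-binding protein. The first 120 bases of each stand for both genes of a pair, from chr11:75599835-75599954 on the minus strand and from chr13:60641790-60641909 on the plus strand.
Gm12338: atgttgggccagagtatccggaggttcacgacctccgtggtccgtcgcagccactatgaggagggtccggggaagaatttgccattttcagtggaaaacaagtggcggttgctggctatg
Gm48583: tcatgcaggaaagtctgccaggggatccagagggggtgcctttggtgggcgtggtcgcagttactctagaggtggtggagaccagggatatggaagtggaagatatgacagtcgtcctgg

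Ndufs5-ps was the member that rose most in iSM KO aortas. Its normalized CPM was 0.805, 0.468 and 0.921 in the controls and 10.9, 11.0 and 10.4 in iSM KO. All 3 iSM KO libraries lay far above the highest control. The log2 fold change was 3.91 (SE 0.22, edgeR FDR 3.26e-05), and it stayed between 3.65 and 4.09 in the 13 alternative fits, each of which called it higher.

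The parent gene went the other way. Ndufs5, on chromosome 4 at 30.6 Mb from Prdm16, had a normalized CPM of 22.1, 21.4 and 24.9 in controls and of 7.16, 6.21 and 7.25 in iSM KO, with no overlap. Its log2 fold change was -1.73 (SE 0.11, edgeR FDR 7.00e-05). Among 378 pairs of a member and its most alike coding gene with both tested, this was the 1 pair in which both had an FDR under 0.05.

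The pseudogene took 3.08% ± 0.809 (SD, n = 3) of the counts of the pair in controls and 61.1% ± 2.46 in iSM KO. The log2 ratio of Ndufs5-ps to Ndufs5 was -4.75, -5.47 and -4.73 in controls and 0.61, 0.82 and 0.53 in iSM KO. The difference was 5.64 (exact two-sided permutation test, run for 13 pairs with no adjustment, p = 0.1, the smallest that 3 against 3 libraries can give). The pair was thus led by Ndufs5 in every control and by Ndufs5-ps in every iSM KO library. Ndufs5-ps was singled out with its values known, so the ratio is not a separate test of it.

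Summed over the pair, the normalized CPM was 22.9, 21.8 and 25.8 in controls and 18.1, 17.2 and 17.7 in iSM KO. This sum differed by less than either gene did, with means of 23.5 ± 2.08 and 17.7 ± 0.458 (SD, n = 3) and a log2 difference of -0.41 (exact permutation p = 0.1). Zbtb20, the zinc finger gene around Ndufs5-ps, had a log2 fold change of 0.20 (SE 0.091, edgeR FDR 0.246). Whether reads moved between the copies or transcription did was not tested: how the authors' counting shares a read that matches both is not given in the sources used here, and every value of Ndufs5-ps in the table was a fraction.

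**Figure D1:**
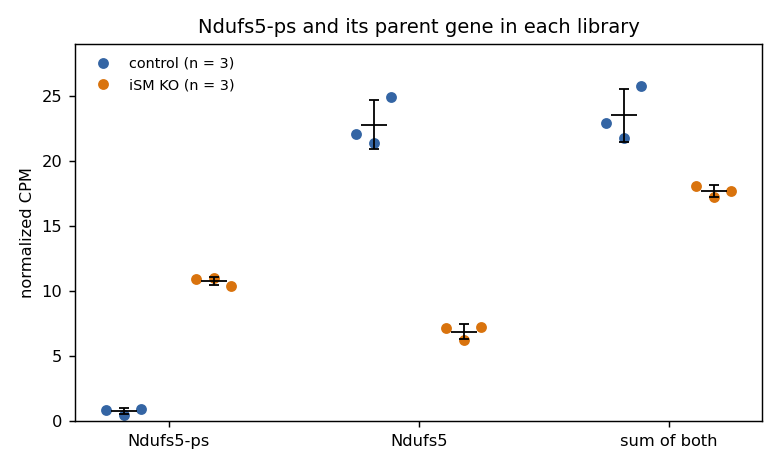
Normalized CPM of Ndufs5-ps, of Ndufs5 and of their sum in each of the 3 control and 3 iSM KO libraries; points are libraries and bars the mean ± SD. Ndufs5-ps rises from under 1 to between 10.4 and 11.0, Ndufs5 falls from between 21.4 and 24.9 to between 6.21 and 7.25, and the sums lie between 17.2 and 25.8.

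Among the 389 members that passed the filter on low counts (over 10 counts in every library of a group), 3 were called changed, with an FDR under 0.05 and a fold change over 2. That is 0.771% of the members tested, against 2.78% of the 16565 genes tested in all. Of the 352 tested rows of the same biotypes under the limit of mean CPM, 2.56% were called, so the low share holds for the members only. Ndufs5-ps and Gm48583 were called higher (all genes, 1.40%) and Gm6088 was called lower (all genes, 1.38%). Without the limit on fold change, 5 members (1.29%) had an FDR under 0.05, against 7.56% of all genes.

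The 1 member called lower was Gm6088. Its normalized CPM was 2.5, 2.31 and 1.01 in controls and 0.123, 0.372 and 0.082 in iSM KO. The lowest control stood above the highest iSM KO library, though control 3 was well below the other controls. The log2 fold change was -3.35 (SE 0.55, edgeR FDR 0.00719), and it was called in all 13 alternative fits, between -4.21 and -3.01. It passed the filter on low counts only through the controls, with 84, 89 and 24 counts there and 5, 13 and 3 in iSM KO, so it had to be higher in controls to be tested with counts this low in iSM KO. At a mean CPM of 2 or more it would not be a member. Ago2 itself had a log2 fold change of 0.19 (SE 0.076, FDR 0.182) at 181 to 226 normalized CPM. Gm6088 made up 0.995% ± 0.386 (SD, n = 3) of the counts of the pair in controls and 0.088% ± 0.0721 in iSM KO, and it overlapped no other gene.

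Gm48583 lies on the strand of Dapk1, a death-associated kinase gene, within an intron. It had a normalized CPM of 0.865, 0.832 and 0.963 in controls and of 1.49, 2.0 and 1.97 in iSM KO. The groups did not overlap, but the levels were low and the log2 fold change of 1.04 (SE 0.25, edgeR FDR 0.0385) was close to both limits. Leaving out any of the 6 libraries took its FDR past 0.05, to 0.0883, 0.0797 and 0.0791 without control 1, 2 and 3, and to 0.0615, 0.159 and 0.0981 without iSM KO 1, 2 and 3. Rbm3, from which its bases cannot be told, had a log2 fold change of -0.30 (FDR 0.152), and Dapk1 one of -0.12.

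Rps27a-ps2 and Gm12338 passed the FDR but not the fold change, and are named here after their values were seen. Rps27a-ps2 had a normalized CPM of 5.49, 4.37 and 3.77 in controls and of 8.77, 6.73 and 9.08 in iSM KO, a log2 fold change of 0.85 (SE 0.18, edgeR FDR 0.0247). Gm12338 had 6.74, 8.08 and 8.88 in controls and 4.41, 4.09 and 5.5 in iSM KO, a log2 fold change of -0.76 (SE 0.17, FDR 0.0268). In neither did the groups overlap. Without control 2, control 3 or iSM KO 1 both lost the FDR limit (Rps27a-ps2 at 0.0572, 0.0758 and 0.0929, Gm12338 at 0.0577, 0.0892 and 0.102). So did Rps27a-ps2 without iSM KO 3 (0.0714) and Gm12338 without iSM KO 2 (0.124).

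Both lie in introns on the opposite strand, of Lca5 and Pitpna. Rps27a had a log2 fold change of -0.32 (FDR 0.174) and Cox7c one of -0.19 (FDR 0.44). The difference in log2 ratio to the coding gene was 1.30 for Gm48583, 1.16 for Rps27a-ps2, -0.58 for Gm12338 and -3.60 for Gm6088, each without overlap between groups (exact permutation p = 0.1, the smallest possible). These members were picked by their FDR in the same libraries, so the ratio is not a separate test of them. Over all 378 pairs the ratio was higher without overlap in 47 (12.4%) and lower in 22 (5.82%). As counted with Rbm3, Rps27a and Cox7c, the summed pairs overlapped between the groups.

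**Figure D2:**
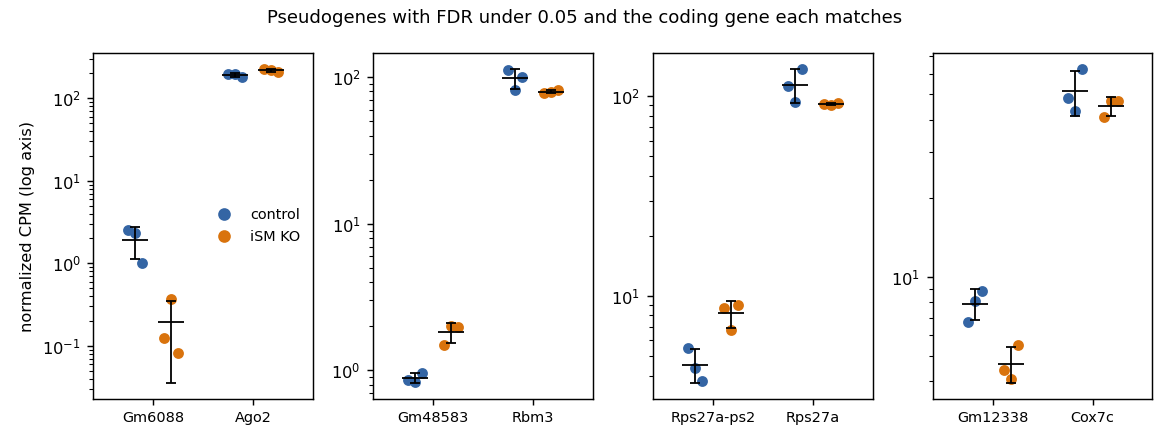
Normalized CPM (log axis, a separate scale for each panel) of Gm6088, Gm48583, Rps27a-ps2 and Gm12338 beside the coding gene each matches; points are libraries and bars the mean ± SD of 3. The groups of each pseudogene are apart, and each coding gene lies above its copy, as Ago2 at 181 to 226 against at most 2.5 for Gm6088.

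Taken over all members tested, the fold changes were centred near 0. Their median log2 fold change was 0.029, against -0.014 over all genes tested, and the quartiles were -0.19 and 0.22, against -0.21 and 0.17. The estimate was above 0 in 213 members and below 0 in 176, and within 0.25 of 0 in 226 (58.1%, against 60.4% of all genes). At an unadjusted p under 0.05 stood 55 members, or 14.1%, against 22.1% of all genes. The groups did not overlap, with iSM KO higher, in 36 members (9.25%, against 15.0% of all genes) and, with iSM KO lower, in 32 (8.23%, against 13.0%).

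**Figure D3:**
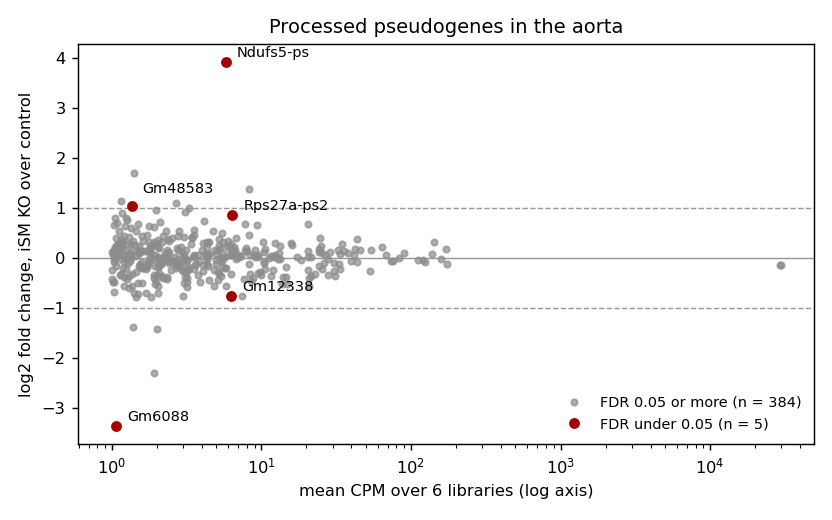
The log2 fold change of iSM KO over control against the mean CPM over 6 libraries (log axis) for the 389 members tested; red points have an edgeR FDR under 0.05 and dashed lines mark a 2-fold change. Most points lie near 0 at every level, Ndufs5-ps at 3.91 and Gm6088 at -3.35 stand apart, and the pair at the right edge is Gm12896 and Gm12895.

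The levels were spread very unevenly. The median mean CPM was 3.14; 129 members lay between 1 and 2, 116 between 2 and 5, 65 between 5 and 10 and 71 between 10 and 100. A further 8 lay between 100 and 1000, and 2 lay above. These were Gm12896 and Gm12895, which together held 91.5% to 95.1% of the members' counts in each library and 6.11% ± 1.82 (SD, n = 3) of all counts in controls and 5.68% ± 0.386 in iSM KO.

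Gm12896 (chr4:122122847-122123072) and Gm12895 (chr4:122455210-122455435), both on the plus strand, are 226 bases long and share 224. They are shown because no protein-coding transcript matched them. The 224 shared bases held 0 mismatches. Capitals here mark the 2 bases at the start of Gm12895 and at the end of Gm12896 that lie outside the shared stretch. They are ends of the annotated copies, not mismatches between them.
Gm12896: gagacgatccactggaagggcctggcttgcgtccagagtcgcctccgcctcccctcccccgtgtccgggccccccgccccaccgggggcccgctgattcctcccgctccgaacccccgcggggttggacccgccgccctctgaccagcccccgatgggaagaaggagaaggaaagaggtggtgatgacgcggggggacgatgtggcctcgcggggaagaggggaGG
Gm12895: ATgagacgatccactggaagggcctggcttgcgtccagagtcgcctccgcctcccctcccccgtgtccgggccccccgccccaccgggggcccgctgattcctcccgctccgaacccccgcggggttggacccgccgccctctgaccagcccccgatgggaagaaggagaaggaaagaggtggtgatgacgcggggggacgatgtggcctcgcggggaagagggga
G and C made up 72.1% of the bases. Gm12896 had a normalized CPM of 29446, 22075 and 42502 in controls and 27053, 31731 and 26795 in iSM KO, and Gm12895 had 28818, 21604 and 41731 against 26485, 31057 and 26330. The libraries kept the same order for both, with control 3 the highest and control 2 the lowest. Each had a log2 fold change of -0.14 (SE 0.23, edgeR FDR 0.775), and without control 3 it became 0.15. Without this pair the members held 0.405% ± 0.0133 of the counts in controls and 0.419% ± 0.0118 in iSM KO.

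The other 8 of the 10 most abundant members were copies of housekeeping mRNAs. They matched Rpl5, Rpl12, Rpl13, Rps23, Rpl27a and Rps6, all of ribosomal proteins, Ppia, which encodes cyclophilin A, and Tpt1, which encodes the translationally controlled tumor protein. The identity over the aligned bases was 100% for each. Their normalized CPM lay between 103 (Rps6-ps4, control 2) and 198 (Gm15500, control 3).

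Per length they lay in a narrow band, from 161 CPM per kb for Rps6-ps4 to 351 for Gm10123, the copy of Ppia. None of the 8 passed the FDR limit in the main edgeR fit. Gm12918, the copy of Rpl13, came nearest: 110, 139 and 127 normalized CPM in controls and 148, 163 and 163 in iSM KO, a log2 fold change of 0.33 (SE 0.098, edgeR FDR 0.0806). Its FDR was 0.0299 with DESeq2, 0.0447 with no filter on low counts and 0.038 without control 2. In the other alternative fits it was 0.0776 or more. Gm15500, the copy of Rpl5, was lower in every iSM KO library, at 167, 169 and 161 against 171, 171 and 198, with a log2 fold change of -0.12 (FDR 0.432).

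Set against their coding genes, these copies took 15.5% (Tpt1-ps3) to 72.3% (Gm15500) of the summed counts of the pair in controls. As each was identical to its gene over the aligned bases, a read within them matches both. How such reads were shared is not given in the sources used here. The coding genes also had exon bases outside the copy, such as 3920 exon bases in all for Rpl5 against 1019 for Gm15500. Other genes shared windows with the copies too, and what set the split was not tested. Gm15500 held 72.3% ± 1.84 (SD, n = 3) of the counts summed with Rpl5 in controls and 74.1% ± 1.18 in iSM KO, and Gm10275 held 68.5% ± 3.0 and 72.4% ± 0.862 of those summed with Rpl12. Tpt1-ps3 held 15.5% ± 0.572 and 15.6% ± 0.144 of those summed with Tpt1. The log2 ratio of copy to gene was higher in iSM KO without overlap for 5 of the 8: by 0.55 for Gm12918, 0.43 for Rps23-ps1, 0.26 for Gm10275, 0.22 for Gm7536 and 0.20 for Gm10123 (exact permutation p = 0.1 for each). A higher ratio need not mean a higher copy. In that order the copies had log2 fold changes of 0.33, 0.088, -0.013, -0.078 and 0.19. Their coding genes had -0.22 (Rpl13), -0.35 (Rps23, edgeR FDR 0.0444), -0.27 (Rpl12), -0.30 (Rpl27a, FDR 0.0381) and -0.015 (Ppia). Over all 378 pairs the ratio was higher without overlap in 47 (12.4%). It overlapped for Gm15500, Rps6-ps4 and Tpt1-ps3, with p of 0.3, 0.4 and 0.9 in the same exact test.

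**Figure D4:**
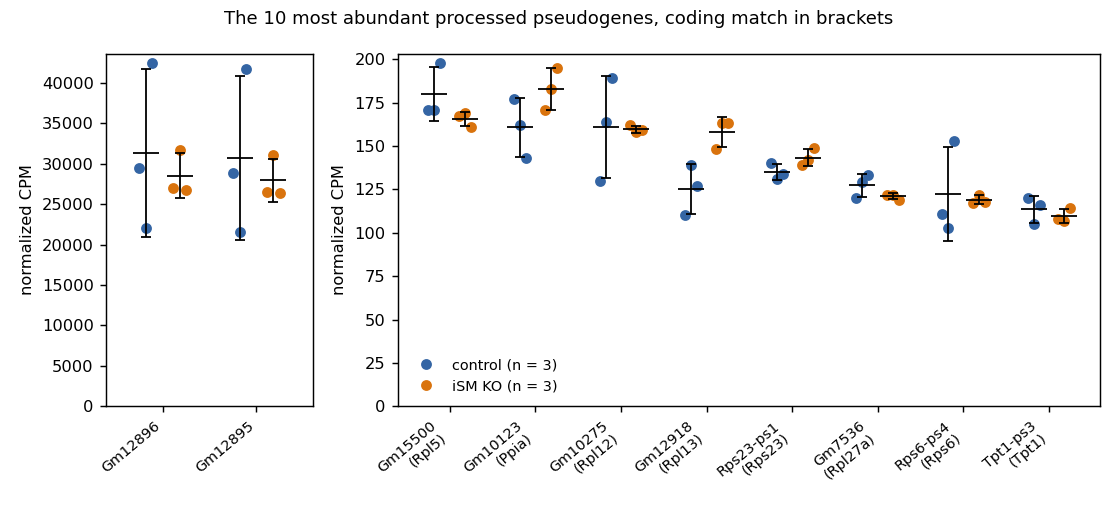
Normalized CPM of the 10 most abundant processed pseudogenes in each library, on a separate linear scale from 0 for Gm12896 and Gm12895; points are libraries and bars the mean ± SD of 3. The pair at 21604 to 42502 is widest among the controls, and the other 8 lie between 103 and 198 with overlapping or close groups.

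By sequence, 388 members matched a coding transcript, at a median identity of 99.5%, and 322 had an identity of 95% or more. In 74 every base was identical. The 388 matches fell on 318 coding genes, with 12 members on Gapdh, a gene of glycolysis, more than on any other gene. Of the 90 members whose name or description gives a parent, the best match was that parent in all 90; for the other 301 the symbol and description did not give a single parent gene, though some, such as Pgk1-rs7 and Eif4a-ps4, name a related gene or family, and the match is given as a likeness.

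Ribosomal protein genes were the match of 94 members, spread over 61 genes. None of the 94 was called in edgeR and 1, Rps27a-ps2, had an FDR under 0.05. Their estimates lay above 0 in 45 and below 0 in 49, with a median log2 fold change of -0.015. The coding ribosomal protein genes were lower by estimate in 79 of 85 and higher in 6, at a median of -0.16, and 4 of them had an FDR under 0.05 (7.56% of all genes did), all lower, without any reaching a 2-fold change. Those 4 became 1 without TMM factors, 0 with the replicate block, 9 without control 2, 1 without iSM KO 3 and 0 without any one of the other 4 libraries. In 63 of the 94 pairs the copy's estimate lay above that of its gene, with a median difference of 0.12 on the log2 scale, against 235 of all 378 pairs and a median of 0.10.

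By sequence, 10 members matched genes of the respiratory chain or ATP synthase. Ndufs5-ps and Gm12338, described above, had an FDR under 0.05, and the other 8 had log2 fold changes from -0.16 to 0.14. Of these, Ndufb4c, a copy of a complex I subunit gene, had a log2 fold change of 0.023 (SE 0.11, edgeR FDR 0.926) and Ndufa12-ps, another, one of -0.028 (SE 0.13, FDR 0.93). Of the 47 complex I genes, Ndufs5 was the 1 called (2.78% of all genes were), and 38 had estimates below 0 at a median of -0.10.

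No copy of a gene of glycolysis or of a translation factor was called. Pgam1-ps2 had a log2 fold change of 0.46 (FDR 0.176) and Pgk1-rs7 one of -0.56 (FDR 0.281); the 12 Gapdh copies ran from -0.69 to 1.69 with none under an FDR of 0.05. Translation factors were the match of 9 members, none under an FDR of 0.05 and with log2 fold changes from -0.49 to 0.26. Eif4a-ps4, named as a pseudogene of initiation factor 4A, had -0.096 (FDR 0.708). In the gene lists themselves, 1 of 67 translation factors was called higher (1.40% of all genes were). This was Eef1a2, the elongation factor form of muscle and nerve, at 1.95 to 2.89 normalized CPM in controls and 38 to 39.2 in iSM KO (log2 fold change 3.98, SE 0.14, FDR 2.18e-06). Of 16 glycolysis enzymes Eno1, an enolase, was called lower (1.38% of all genes were), at 114 to 162 and 59.1 to 72.2 (log2 fold change -1.16, SE 0.14, FDR 0.00149).

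How much of a member could be told from other genes varied widely. For 45 members no window of 100 bases occurred in another gene's transcript, for 88 up to 50% did, for 173 more than 50% but not all, and for 85 all did. Of the values in the table, 5.93% were fractions in the first set and 84.3%, 97.7% and 98% in the next ones, where a value counts as whole within 1e-06. The share over all tested coding genes was 26.6%.

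The members with no shared window were the lowest, at a median of 1.52 CPM per kb, against 1.8, 6.72 and 13.7 in the other sets. None of the 45 had an FDR under 0.05 in edgeR, while 4 had an unadjusted p under 0.05. Over all members tested these shares were 1.29% and 14.1%, and over all genes 7.56% and 22.1%. At the members' share of 1.29%, a set of 45 without any is not unusual. The median log2 fold changes of the 4 sets were 0.11, 0.030, 0.025 and 0.023. The correlation across genes of a member's fold change with that of its match was 0.15 where no window was shared (40 pairs), 0.17 where up to 50% were (84 pairs), -0.070 where more but not all were (171 pairs, Ndufs5-ps among them) and 0.42 where all were (83 pairs), with no steady order. Over all 378 pairs it was 0.10 (Spearman 0.32), and 0.23 without Ndufs5-ps. These genes are not independent, share libraries, and where sequence is shared also share reads.

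**Figure D5:**
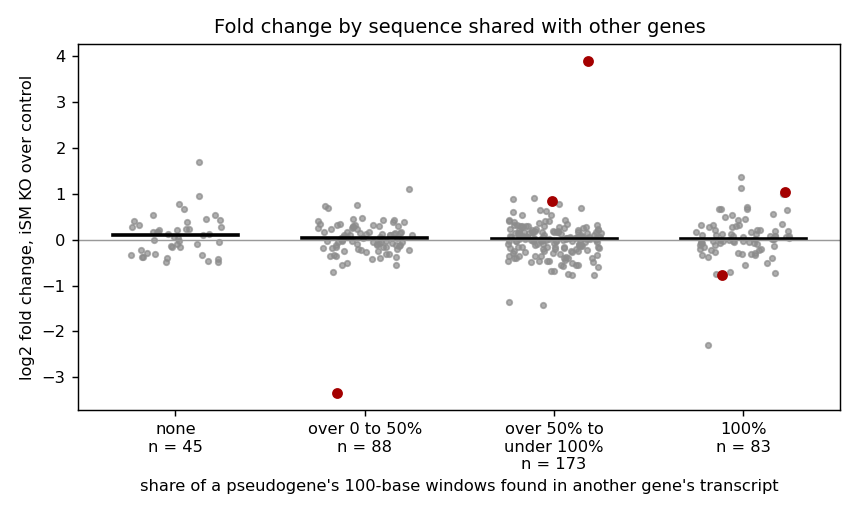
The log2 fold change of each tested member by the share of its 100-base windows that occur in another gene's transcript; red points have an edgeR FDR under 0.05 and black bars are medians. The medians lie between 0.023 and 0.11, and none of the 5 red points among 389 falls in the set of 45 without shared windows.

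Identical copies showed how values can sit at 1 locus or another. Gm10171 and Gm10233, named here after their values were seen, are 628-base copies of part of Timm23, a gene of the mitochondrial protein import channel, and were the 2 members that did not pass the filter. Gm10171 had a normalized CPM of 5.84, 5.04 and 0 in controls and of 5.42, 0 and 1.89 in iSM KO. Gm10233 had 0, 0.65 and 5.32 in controls and 0, 0 and 3.75 in iSM KO.

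In the controls and in iSM KO 1, either Gm10171 or Gm10233 held most of their joint value. In iSM KO 3 it was split, at 1.89 and 3.75, and in iSM KO 2 both were listed at 0. Gm10273, which holds all 529 windows of these copies and lies under the limit of mean CPM, had 5.27 in iSM KO 2 and 0 in the other 5 libraries. The sum of the 3 copies was 5.84, 5.69 and 5.32 in controls and 5.42, 5.27 and 5.63 in iSM KO. Timm23 itself had 8.74, 10.9 and 12.6 and then 12.1, 11.3 and 9.0. For the sum, then, all 6 libraries were close, although the position of the counts changed from library to library within both groups.

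By place, 218 members overlapped no other gene, 78 lay in an intron on the same strand, 63 in an intron on the opposite strand, 21 over an exon of the opposite strand and 11 over one of the same strand. Among 66 members in a same-strand intron with a tested host, the correlation across genes of member and host fold changes was 0.36 (Spearman 0.43). Of those 78 members, 2 were called, Ndufs5-ps and Gm48583 (2.56%, close to the 2.78% of all genes), and their hosts were not. The kit and counting are not stated to use strand, so reads of a host's precursor and of a copy within it cannot be told apart where their sequence is the same.

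The members lay on 20 chromosomes. Of 18 on chromosome 4, which carries Prdm16, 2 lay within 20 Mb of it: Trmt112-ps2 and Gm13092, with log2 fold changes of -0.024 (edgeR FDR 0.949) and -0.023 (FDR 0.975). By the position of the coding gene, matches placed 6 members within 20 Mb of Prdm16, each with an FDR of 0.287 or more. A wider window of 40 Mb, which takes in Ndufs5 at 30.6 Mb, held 12. Of these 12, 1 was called, Ndufs5-ps (2.78% of all genes were called). The other pair with a called coding gene, noticed after its values were seen, was Gm20008, on chromosome 17 and 74.8% identical to Gm13212. Gm13212 lies 8.69 Mb from Prdm16 and had a log2 fold change of -4.97 (FDR 8.32e-05), while Gm20008, which shares no window with it, had -0.37 (FDR 0.398).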

How the data were processed

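Per the labels and the study's methods, total RNA was depleted of ribosomal RNA, sequenced as paired reads of 150 bases, and processed by the authors with DRAGEN on mm10 and Ensembl release 101. The deposited values are estimated counts per gene and were rounded here; how reads that match several loci were shared is not given in the sources used here. The 16565 genes exceeding 10 counts in every library of either group were tested with edgeR 4.0.16 (R 4.3.3; TMM, quasi-likelihood), with the Benjamini-Hochberg adjusted p as the FDR; a call needed an FDR below 0.05 together with more than a 2-fold change. Totals of 24911584 to 40460411 limit members near a CPM of 1. No 2 libraries were duplicates, and the edgeR p-values set the difference between the groups against the spread within the groups of these samples. Matches came from blastn 2.17.0 and exact windows of 100 bases over GENCODE M21 transcripts (GRCm38), whose release differs from that of the counts. Ratios to the coding gene used counts plus 0.5. Genes were named by rule: Ndufs5-ps, called members, the 10 most abundant, their matches, called genes of 4 family lists, and Prdm16. Members and lists were chosen with earlier results of these data known. Alternatives were DESeq2 1.42.0, limma-voom (limma 3.58.1), other scaling, filters and limits, a replicate block and each library left out.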

Additional observations from a re-analysis of the deposited data

How the results depend on the processing

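The members called higher, 2, became 5 with DESeq2, 5 with no filter on low counts, 6 at a mean CPM of 0.5 or more and 1 at a mean CPM of 2 or more. The members called lower, 1, became 2 with no filter, at a mean CPM of 0.5 or more and at any fold change; at a mean CPM of 2 or more edgeR called 0, with 0 at an unadjusted p under 0.05 and a 2-fold change and 0 with DESeq2 and limma-voom. Leaving out 1 library gave 1 to 5 higher (5 without control 2, 1 without control 3, iSM KO 1 or iSM KO 2) and 1 to 2 lower (2 without iSM KO 1). Ndufs5-ps and Gm6088 were called in all 13 fits, with FDR up to 0.000552 and 0.0347. The labels name no pairing, and same-numbered libraries did not deviate together (correlations of -0.132, -0.0455 and -0.107). With 3 libraries in a group this check cannot exclude a pairing. The replicate block gave 3 higher and 1 lower, without Gm48583 (FDR 0.101), and Rps27a-ps2 had an FDR of 0.0502. The median over the members ran from 0.008 to 0.051. Direction turned for values near 0. Gm10275 was 0.003 with limma-voom, 0.012 without TMM factors and 0.003 with the block, and Ppia 0.005 without TMM factors. With 1 library left out Gm12896 and Gm12895 ran from -0.33 to 0.15, Gm10275 from -0.14 to 0.11, Rps6-ps4 from -0.14 to 0.15, Tpt1-ps3 from -0.097 to 0.006, Ppia from -0.13 to 0.081, and the log2 ratio of Tpt1-ps3 to Tpt1 from -0.024 to 0.039; the cause was not tested. Depth limits members near a CPM of 1.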
